A study of Mus musculus with 12 samples.

Results

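The genes described here carry out MHC class I antigen presentation: the 2 heavy chain genes H2-K1 and H2-D1, the light chain gene B2m, the peptide transport and loading genes Tap1, Tap2 and Tapbp, the immunoproteasome subunit genes Psmb8, Psmb9 and Psmb10, and the regulator Nlrc5. The set was given by name, with no threshold on measured values, but was chosen with earlier results of these data known. Each of the 10 was found by its symbol among the 28529 lines of the table that were used. All 10 passed the filter on low values that left 21203 genes for testing. RNA had been sequenced from mouse cornea in 4 groups. The mice given exosomes intravenously had dry eye disease (DED) and received the vesicles by injection into a vein (3 libraries). The eye drop mice had DED and received the exosomes as a drop (2 libraries used). The DED mice carried the disease model with no exosomes (3 libraries), and the control mice were untreated (3 libraries). Exosomes are small membrane vesicles that cells release, and the series title calls these stem cell-derived.

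All animals are labelled wild type. Strain, H2 haplotype, sex, age, the way DED was produced, and the dose and timing of the exosomes are not given in the labels. The labels list no DED group that received the vehicle alone by either route, so the vesicles cannot be told apart from the drop, the injection or the handling. Nothing beyond the sample titles says that the libraries of a group came from separate animals, so p-values measure only the spread between these libraries. Because whole tissue was sequenced, fewer cells of a type and less RNA per cell cannot be told apart.

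Class I molecules sit on nearly all nucleated cells and show CD8 T cells a sample of the peptides made inside the cell. Proteasomes cut proteins into these peptides, the Tap1-Tap2 transporter carries them into the endoplasmic reticulum, and tapasin, the product of Tapbp, helps load them onto a heavy chain paired with B2m. Interferons are known to raise the whole route: Nlrc5 drives class I promoters, and Psmb8, Psmb9 and Psmb10 replace the catalytic subunits Psmb5, Psmb6 and Psmb7 to form the immunoproteasome. In the cornea, class I is best known for its part in graft rejection.

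Total counts ran from 8956553 to 14263045 per library, lowest in the 3 intravenous libraries (8956553 to 9501661). Summed markers of corneal epithelium overlapped between groups, at 837448 to 997698 normalized counts in intravenous, 890870 to 903832 in eye drop, 814278 to 1032418 in DED and 676953 to 968366 in control libraries. Single libraries stood apart. Control 1 had the lowest score on the first principal component (-98, against -55.4 to 72.2 in the others), and intravenous 3 on the third (-101.6, against -19.5 to 23.6). Markers of neighbouring tissues were highest in DED 3 (retina), eye drop 2 (lens) and intravenous 1 (muscle). The 15 muscle markers summed to 9121.5, 4867.5 and 258.3 normalized counts in the intravenous libraries, 125.6 to 209.8 with the eye drop, 151.3 to 1216 in DED and 271.5 to 505.7 in controls. Values are given below as normalized counts, that is, counts divided by a size factor for each library. A gene is said to rise or fall where limma's moderated test gave an adjusted p under 0.05 over all 21203 genes.

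Most genes of the class I route were higher in the corneas of mice given exosomes intravenously than in DED corneas without exosomes: H2-K1, H2-D1, B2m, Psmb8, Psmb9 and Nlrc5 rose, and Tap1, Tap2, Tapbp and Psmb10 did not pass. Over all genes tested, 0.962% rose in this comparison, against 6 of the 10. Since the set was chosen with earlier results of these data known, these shares describe the genes and do not test the set. The count of genes changed in either direction, 308, was 66 without DED 1, 85 without DED 3 and 1609 without intravenous 3, and 169 to 296 without each of the others. The median log2 fold change was 1.00 over the 10 genes and -0.04 over all genes. In every intravenous library 9 of the 10 genes, all but Tapbp, lay above every DED library. Of all genes, 8.12% showed such a separation upwards. The values of each library are drawn in the plot of normalized counts by gene.

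**Figure D1:**
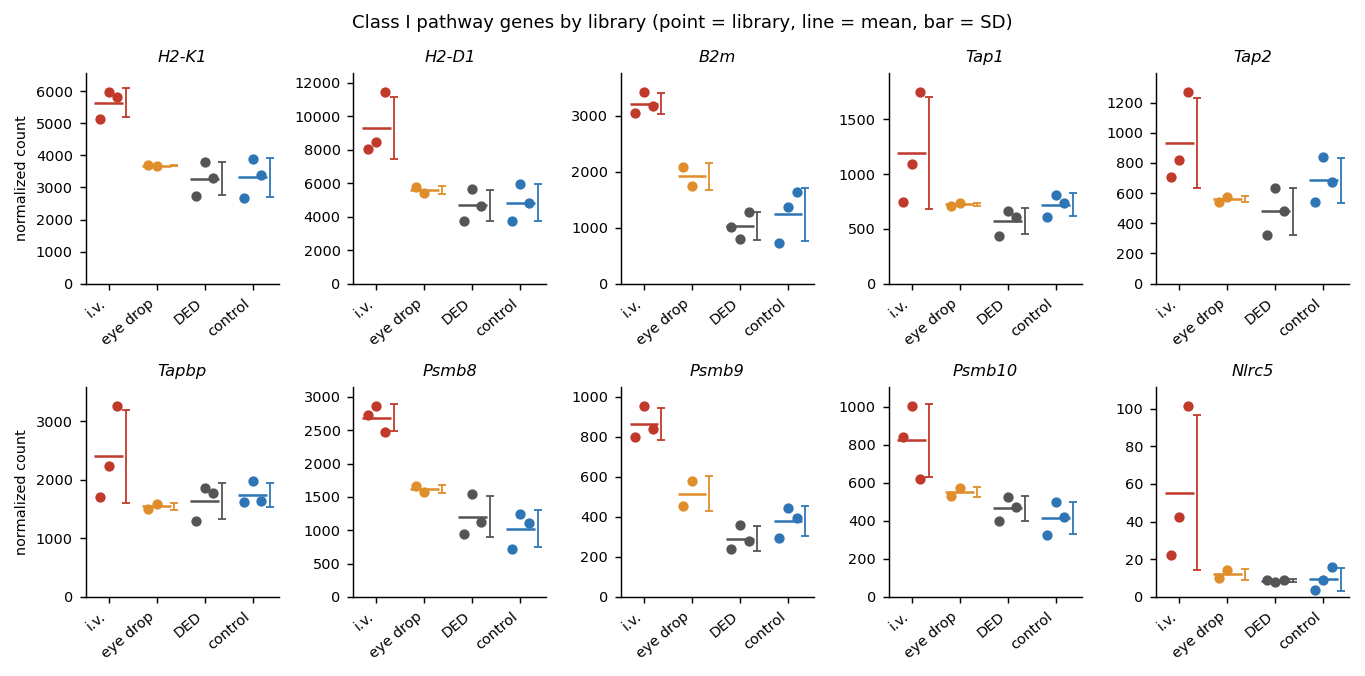
Normalized counts (linear y axis from 0, its own scale for each gene) of the 10 class I genes in each library; each point is 1 library, the horizontal line the group mean and the bar its SD (n = 3, and 2 for the eye drop). B2m had 3046 to 3416.5 normalized counts in the intravenous libraries, above the 1745 and 2091 of the eye drop libraries and all DED and control libraries, while Tapbp in intravenous 1 (1702) lay among the DED libraries.

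The heavy chains gave the following values. H2-K1, which encodes the K molecule, had 5151, 5971 and 5840 normalized counts in the intravenous libraries, 3694 and 3678 in the eye drop libraries, 2743, 3794 and 3291 in the DED libraries, and 2681, 3887 and 3405 in controls. The intravenous libraries stood above all others, which overlapped. Its log2 fold change was 0.80 between intravenous and DED (SE 0.18, adjusted p = 0.0387), or 1.74-fold (95% interval 1.33 to 2.27). H2-D1, which encodes the D molecule, had 8024, 8453 and 11412 normalized counts with the intravenous route, 5751 and 5414 with the eye drop, 3760, 5643 and 4604 in DED, and 3738, 5926 and 4822 in controls. Again every intravenous library was the higher one, and intravenous 3 was the highest of all. The log2 fold change against DED was 1.00 (SE 0.21, adjusted p = 0.0250), or 1.99-fold (1.47 to 2.71).

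B2m, the light chain without which heavy chains do not reach the surface, showed the clearest step between treated and untreated corneas among the chains. Its normalized counts were 3046, 3416.5 and 3179 with the intravenous route, 2091 and 1745 with the eye drop, 1005, 794 and 1284 in DED, and 716.6, 1365 and 1632 in controls. All intravenous libraries were above both eye drop libraries, and these were above every DED and control library. The rise from DED was 1.67 on the log2 scale (SE 0.25, adjusted p = 0.00437), or 3.18-fold (2.19 to 4.63). H2-K1 and H2-D1 share sequence with other class I genes: 9.6% and 12.8% of the 50-base words of their transcripts also occur in other genes, most often H2-Q10 and H2-Q1. Their counts are uncertain, since how shared reads were counted is not given, and these percentages do not measure by how much. B2m shares none.

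The promoters of these 3 genes are printed because their products form 1 complex and rose together. They are RefSeq windows of the build GRCm38.p6 from 250 bases before to 50 bases after the start, on the strand of the gene, and capitals mark matches to 4 motifs. The motifs were an interferon-stimulated response element core (GAAANNGAAA), a shorter interferon regulatory factor element (AANNGAAAC), an NF-kB site (GGGATTCCC) and the CCAAT box (CCAAT), on both strands. Their letters were chosen after these sequences had been seen. H2-K1 lies at chr17:34000298-34000597 on the minus strand, H2-D1 at chr17:35262844-35263143 on the plus strand, and B2m at chr2:122147437-122147736 on the plus strand.
H2-K1: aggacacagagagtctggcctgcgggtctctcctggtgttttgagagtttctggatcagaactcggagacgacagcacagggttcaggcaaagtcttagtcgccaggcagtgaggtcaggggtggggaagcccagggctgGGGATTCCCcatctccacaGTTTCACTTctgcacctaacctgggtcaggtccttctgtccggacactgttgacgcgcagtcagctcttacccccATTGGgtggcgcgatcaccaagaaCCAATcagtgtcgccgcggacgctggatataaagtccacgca
H2-D1: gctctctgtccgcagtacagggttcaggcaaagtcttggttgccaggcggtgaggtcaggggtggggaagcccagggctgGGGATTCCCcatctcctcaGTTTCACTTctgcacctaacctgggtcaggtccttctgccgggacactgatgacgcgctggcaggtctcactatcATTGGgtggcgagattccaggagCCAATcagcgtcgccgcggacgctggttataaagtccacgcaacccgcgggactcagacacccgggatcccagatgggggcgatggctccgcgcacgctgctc
B2m: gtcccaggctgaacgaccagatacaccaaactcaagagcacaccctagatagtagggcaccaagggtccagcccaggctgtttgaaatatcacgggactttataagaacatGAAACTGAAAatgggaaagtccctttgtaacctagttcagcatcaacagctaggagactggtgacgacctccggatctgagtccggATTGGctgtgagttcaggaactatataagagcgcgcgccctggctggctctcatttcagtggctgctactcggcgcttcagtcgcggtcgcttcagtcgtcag
The heavy chain windows each held 1 NF-kB match followed by 1 interferon regulatory factor match and 2 CCAAT boxes. The NF-kB match spanned bases -110 to -102 from the start in H2-K1 and -170 to -162 in H2-D1. H2-K1 had 2 RefSeq windows, of which the first listed was used, so these positions depend on the start chosen. Shifted by 60 bases, the 2 windows were identical at 176 of 240 positions (73.3%). B2m held the response element core at -139 to -130 and 1 CCAAT box. Of 27025 promoters of the same length, 0.37% held the NF-kB letters, 5.82% the shorter interferon regulatory factor element, 3.49% the response element core and 37.9% a CCAAT box. A match is a description of letters, and binding was not measured.

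Peptide transport and loading genes differed from the chains in that the intravenous libraries spread widely. Tap1, which forms the ATP-driven peptide pump with Tap2, had 744.3, 1090 and 1747 normalized counts with the intravenous route, 712.9 and 734.8 with the eye drop, 435.8, 663.1 and 606.3 in DED, and 603.7, 811.6 and 739.9 in controls. Tap2 had 704.8, 819.7 and 1268 with the intravenous route, 543.9 and 572.3 with the eye drop, 319.4, 636.5 and 479.3 in DED, and 540.6, 838.7 and 671.5 in controls. Tapbp had 1702, 2231 and 3268 with the intravenous route, 1498 and 1592 with the eye drop, 1288, 1864 and 1776 in DED, and 1619, 1982 and 1637 in controls. In each of the 3 genes intravenous 3 was above all other libraries, and intravenous 1 lay within the range of controls. The log2 fold changes from DED were 1.00 for Tap1 (95% interval 0.47 to 1.54, adjusted p = 0.0623), 0.97 for Tap2 (0.42 to 1.51, adjusted p = 0.0761) and 0.51 for Tapbp (0.05 to 0.98, adjusted p = 0.267). None passed. Without intravenous 1 or intravenous 3 Tap1 did pass (adjusted p down to 0.0202), and so did Tap2 without DED 2 (1.20, adjusted p = 0.0409). On the values as deposited, with no scaling, Tapbp was at -0.11, where the median of all genes was at -0.58.

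Reads of these genes may be shared with neighbours on the other strand, since the kit is not stated to keep strand. By the GENCODE annotation of GRCm38, 212 exon bases of Tap1 overlap Psmb9 on the opposite strand. The antisense gene Gm19412 covers 24.9% of the exon bases of Tapbp, Gm15821 covers 14.1% of Tap2 and Gm20496 covers 14.7% of Psmb8.

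Of the immunoproteasome subunits, Psmb8 and Psmb9 rose and Psmb10 did not pass. Psmb8, the chymotrypsin-like subunit, had 2727, 2870 and 2468 normalized counts with the intravenous route, 1662.5 and 1579 with the eye drop, 950.6, 1544 and 1118 in DED, and 717.3, 1245 and 1113 in controls. It rose from DED by 1.19 on the log2 scale (SE 0.22, adjusted p = 0.0114), or 2.27-fold (1.66 to 3.11). Both treated groups lay wholly above the untreated ones. Psmb9, the subunit that takes the place of Psmb6, had 801, 956.1 and 840.1 with the intravenous route, 455.4 and 578.1 with the eye drop, 237.3, 359.3 and 276.9 in DED, and 295.6, 443.5 and 393.3 in controls. Its rise from DED, 1.59 (SE 0.20, adjusted p = 0.000801) or 3.00-fold (2.24 to 4.02), had the smallest p of the 10 genes and ranked 12th of all genes. Psmb10, which takes the place of Psmb7, had 843.1, 1005 and 618.1 with the intravenous route, 531.3 and 570.6 with the eye drop, 397, 525.6 and 471.4 in DED, and 326, 497.6 and 420.5 in controls. Every intravenous library was above every other library, yet its log2 fold change from DED of 0.80 (0.37 to 1.24) did not pass (adjusted p = 0.0636). Without intravenous 3 it did (1.00, adjusted p = 0.00496).

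Psmb9 and Tap1 start back to back on chromosome 17, at chr17:34187281-34187580 on the minus strand and chr17:34187306-34187605 on the plus strand, and their windows share 275 bases. The window is printed, as read on the Psmb9 strand, because the 2 genes share most of it. Psmb9 rose from DED and Tap1 did not pass, but the difference between the 2 genes was not tested. Their 95% intervals on the log2 scale overlapped, at 1.165 to 2.007 for Psmb9 and 0.466 to 1.541 for Tap1.
Psmb9: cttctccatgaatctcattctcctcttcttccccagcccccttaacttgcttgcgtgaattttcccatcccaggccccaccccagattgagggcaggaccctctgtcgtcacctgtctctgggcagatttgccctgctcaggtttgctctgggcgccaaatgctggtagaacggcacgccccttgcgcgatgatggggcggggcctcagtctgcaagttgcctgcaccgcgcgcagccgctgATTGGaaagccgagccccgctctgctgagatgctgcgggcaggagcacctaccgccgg
The capitals mark the single match to the 4 motifs, a CCAAT box at -8 to -4 from the Psmb9 start. No match says only that these letters are not in this window. Psmb8 and Psmb10 held none of the 4 motifs and Tapbp held 2 CCAAT boxes. In all, 8 of the 10 genes matched the promoter table.

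The balance between inducible and constitutive catalytic subunits was compared as a ratio within each library, in which the size factor cancels but for the pseudocount. The log2 ratio of Psmb8 to Psmb5 was 1.95 ± 0.26 with the intravenous route (SD, n = 3), 1.82 ± 0.15 with the eye drop (SD, n = 2), 0.77 ± 0.22 in DED (SD, n = 3) and 1.18 ± 0.26 in controls (SD, n = 3). Both treated groups stood above all 6 untreated libraries. For Psmb9 to Psmb6 it was -1.24 ± 0.35 with the intravenous route, -1.37 ± 0.14 with the eye drop, -2.54 ± 0.11 in DED and -1.73 ± 0.06 in controls. Here the DED libraries lay below all 3 controls, and the controls below all 5 treated libraries. For Psmb10 to Psmb7 it was -1.25 ± 0.10 with the intravenous route, -1.66 ± 0.04 with the eye drop, -1.95 ± 0.22 in DED and -1.78 ± 0.23 in controls. On the count scale, Psmb9 stood at 0.422 of Psmb6 with the intravenous route, 0.386 with the eye drop, 0.172 in DED and 0.301 in controls. A two-sided exact permutation test of any difference between the 4 group means over 92400 arrangements gave p = 0.00325 for Psmb8 to Psmb5, 0.00169 for Psmb9 to Psmb6 and 0.0102 for Psmb10 to Psmb7 (adjusted p = 0.00487, 0.00487 and 0.0102 over the 3 ratios). Single pairs of groups were not tested for the ratios.

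**Figure D2:**
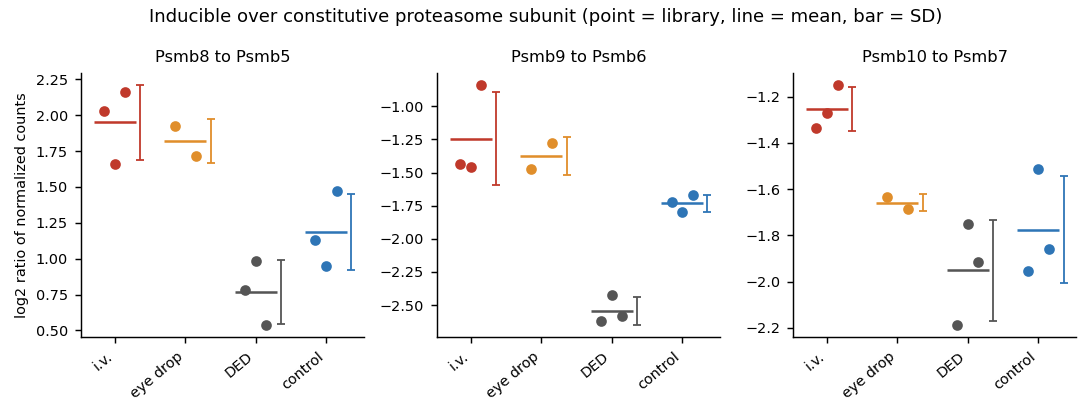
Log2 ratio of the normalized counts of each inducible subunit to the constitutive one it replaces, by library (points), with group means (lines) and SD (bars); n = 3, and 2 for the eye drop. The y axes differ between panels and do not start at 0. The Psmb9 to Psmb6 ratio averaged -2.54 in DED, below the other 3 groups.

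None of the constitutive partners passed in these comparisons. Psmb5 had a log2 fold change of 0.004 between intravenous and DED (95% interval -0.51 to 0.52), -0.60 between eye drop and DED (-1.17 to -0.02, adjusted p = 0.691) and 0.66 between DED and control (0.15 to 1.17, adjusted p = 0.183). Psmb6 stood at 0.29 (-0.17 to 0.74), -0.33 (-0.84 to 0.18) and 0.44 (-0.02 to 0.90) in the same order, and Psmb7 at 0.10 (-0.31 to 0.51), -0.04 (-0.50 to 0.42) and 0.35 (-0.06 to 0.76). The lower mean ratios in DED than in control stand beside higher, though not passing, values of the denominators. Psmb5 counts are uncertain, since 54.1% of its 50-base words occur in other genes, chiefly Gm3375.

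Nlrc5, the transactivator of class I genes, was low throughout and most variable. It had 22.4, 42.2 and 101.6 normalized counts with the intravenous route, 9.94 and 14.1 with the eye drop, 9.13, 7.76 and 8.76 in DED, and 3.71, 8.70 and 15.9 in controls. These rested on 17, 30 and 70 counts in the intravenous libraries and on 5 to 17 in every other library. The intravenous libraries were above the rest and differed among themselves more than any other group. The log2 fold change from DED was 2.30 (SE 0.56, adjusted p = 0.0494), or 4.93-fold (2.18 to 11.1). The call was lost when any 1 library other than control 1 or intravenous 1 was left out (log2 fold change 1.74 to 2.81, adjusted p up to 0.147).

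Calls of the other genes against DED also rested on single libraries to different degrees. B2m and Psmb9 passed without each of the 11 libraries in turn. Psmb8 did not pass without DED 1 (1.03, adjusted p = 0.0846) or DED 3 (1.15, adjusted p = 0.0632), and H2-D1 did not without control 3, DED 1 or DED 3 (adjusted p up to 0.144). H2-K1 failed without control 3, DED 1, DED 3, either eye drop library, intravenous 1 or intravenous 2 (0.68 to 0.91 over all left-out libraries, adjusted p up to 0.185). The count of 6 fell to 2 without DED 1 or DED 3 and to 3 without control 3. Without DED 3, eye drop 2 and intravenous 1, the libraries highest in markers of neighbouring tissues, 2 genes passed, B2m at 1.88 and Psmb9 at 1.61 (adjusted p = 0.0310 each). Without limma's mean-variance trend and robust estimation 1 of the 10 passed here, 2 passed between intravenous and control, and 0 in the test of any difference between the groups.

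**Figure D3:**
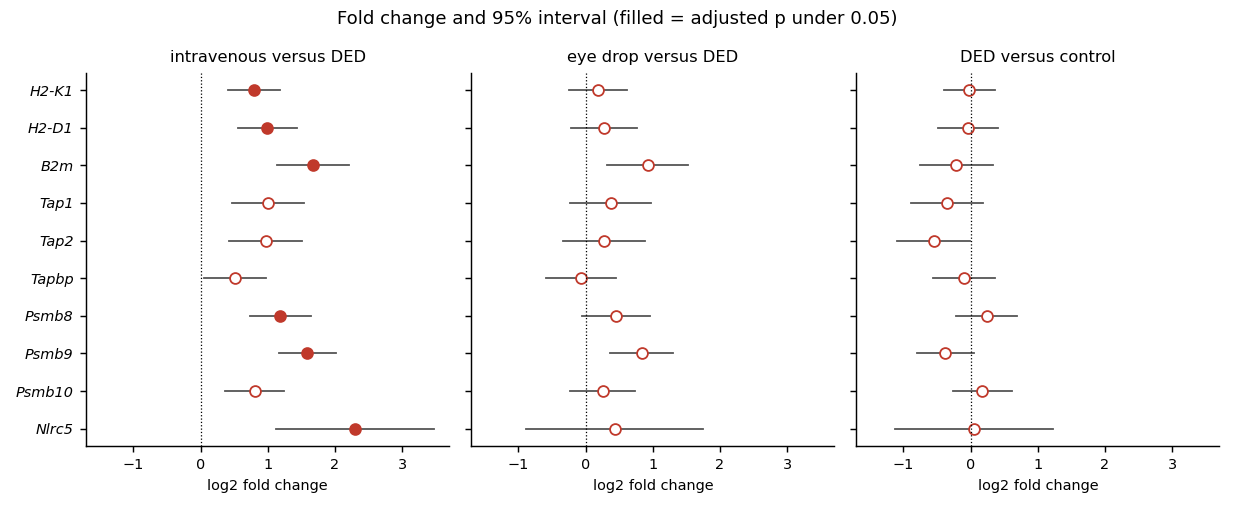
Log2 fold change (x axis) of each gene with its 95% interval (grey line) for intravenous against DED, eye drop against DED and DED against control; filled points have an adjusted p under 0.05 in limma's test over all genes. Filled points occur in the left panel alone, with Nlrc5 at 2.30 and B2m at 1.67, and all panels share the DED libraries.

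Against controls the intravenous group was higher in the chains, the immunoproteasome and the regulator. H2-K1 (0.78, SE 0.18, adjusted p = 0.0145), H2-D1 (0.95, SE 0.21, adjusted p = 0.0116), B2m (1.46, SE 0.25, adjusted p = 0.00485), Psmb8 (1.43, SE 0.22, adjusted p = 0.00213), Psmb9 (1.21, SE 0.20, adjusted p = 0.0035), Psmb10 (0.98, SE 0.21, adjusted p = 0.00941) and Nlrc5 (2.36, SE 0.56, adjusted p = 0.0153) rose on the log2 scale. These 7 of 10 compare with 6.66% of all genes that rose, again as a description of a set chosen with earlier results known. The same 7 lay above every control in each intravenous library, as did 15.1% of all genes. The transport and loading genes did not pass: Tap1 was at 0.66 (95% interval 0.12 to 1.19), Tap2 at 0.42 (-0.12 to 0.97) and Tapbp at 0.41 (-0.05 to 0.88). As deposited, with no scaling, these 3 stood at -0.01, -0.24 and -0.25, where the median of all genes was at -0.55. Control 1 was the lowest control for all 10 genes. Without it H2-K1 (0.63, adjusted p = 0.0934), H2-D1 (0.78, adjusted p = 0.0816), Psmb10 (0.81, adjusted p = 0.0688) and Nlrc5 (1.87, adjusted p = 0.0986) no longer passed, while B2m, Psmb8 and Psmb9 did. Tap1 passed without intravenous 1 (0.95, adjusted p = 0.0397). The comparison shares its intravenous libraries with the one against DED, so the 2 sets of values are not independent.

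The eye drop group lay between the intravenous and the DED group for 9 of the 10 mean normalized counts, the exception being Tapbp (1545 ± 66.1 with the eye drop, SD, n = 2; 1643 ± 310 in DED, SD, n = 3). None of the 10 genes passed against DED, where 0.193% of all genes did. Limma-voom on the counts called none of the 10 either. The largest differences were those of B2m at 0.92 on the log2 scale (95% interval 0.32 to 1.53, adjusted p = 0.430) and Psmb9 at 0.84 (0.37 to 1.31, adjusted p = 0.280), the 2 genes with an unadjusted p under 0.05. For Psmb8 the difference was 0.46 (-0.05 to 0.97) and for H2-K1 0.18 (-0.25 to 0.61). B2m, Tap1, Psmb8, Psmb9, Psmb10 and Nlrc5 were higher in both eye drop libraries than in all 3 DED libraries, a separation shown by 13.8% of all genes. Against control none of the 10 passed, in limma or in limma-voom, and of all genes 0.00472% did. B2m (0.71, 0.11 to 1.31) and Psmb8 (0.70, 0.19 to 1.21) had an unadjusted p under 0.05.

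Intravenous and eye drop corneas were then set side by side, the comparison of the 2 routes. All 10 genes were higher in each intravenous library than in each eye drop library, where 12.4% of all genes were so. The median log2 difference was 0.71 over the 10 genes and -0.02 over all genes. All 10 had an unadjusted p under 0.05, as did 1953 of the 21203 genes. None passed after adjustment, and neither did any other gene (0%), in limma or in limma-voom. Without intravenous 3, 632 genes passed but none of the 10, and on the values as deposited 1404 genes passed, again none of the 10. The differences were 0.61 for H2-K1 (95% interval 0.18 to 1.04), 0.72 for H2-D1 (0.22 to 1.21), 0.75 for B2m (0.15 to 1.35), 0.75 for Psmb9 (0.28 to 1.22) and 1.87 for Nlrc5 (0.56 to 3.18). The 2 routes are thus not shown to differ at the adjusted threshold, and the intervals leave out a difference of 0 for each of these 5 genes. Without control 1 and intravenous 3 together, an alternative chosen after the data had been seen, 4 of the 10 passed here and 1 passed between eye drop and DED.

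No difference between DED and control corneas in these genes passed the test. None of the 10 passed with limma or limma-voom, and 1 had an unadjusted p under 0.05, where 1.25% of all genes passed. That gene was Tap2, at -0.55 on the log2 scale (95% interval -1.09 to -0.002, adjusted p = 0.285). Psmb9 was at -0.38 (-0.80 to 0.05), Tap1 at -0.35 (-0.89 to 0.19), B2m at -0.21 (-0.75 to 0.33) and Psmb8 at 0.24 (-0.21 to 0.69). H2-K1 was at -0.02 (-0.40 to 0.37), an interval of 0.757-fold to 1.29-fold. For each of the 10 genes the libraries of the 2 groups overlapped. Of all genes, 13.3% were higher in every DED library than in every control, and 12.5% were lower. In the test of any difference between the 4 groups, 7 of the 10 passed, all but Tap1, Tap2 and Tapbp, against 4.51% of all genes. Without DED 3, eye drop 2 and intravenous 1 that count was 1, and without single libraries it was 3 to 6.

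**Figure D4:**
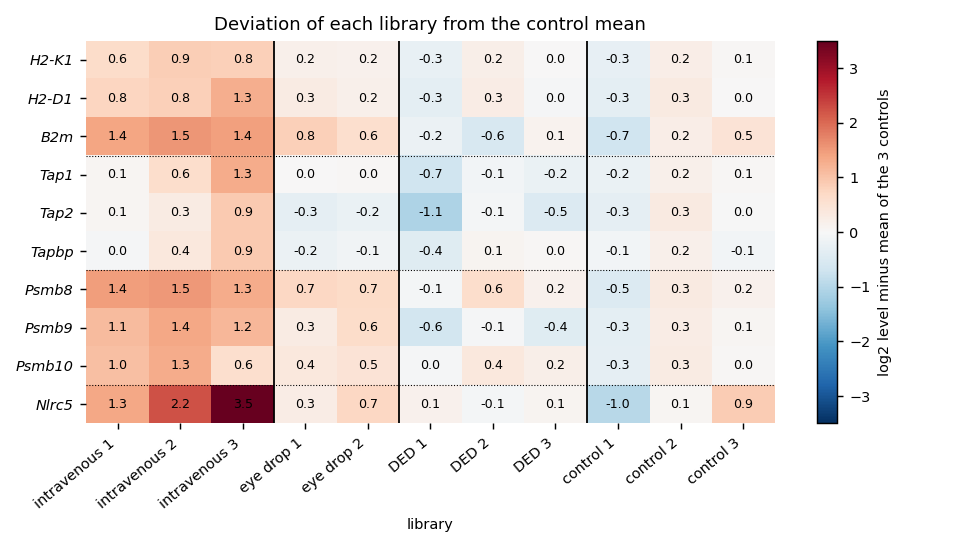
Difference of each library (columns) from the mean of the 3 controls for each gene (rows), in log2(normalized count + 1); red is higher and blue lower, vertical lines part the groups and dotted lines the roles. Intravenous 3 is the highest column for Nlrc5 (3.48) and for the transport and loading genes, whereas Psmb8 is higher in intravenous 1 (1.45) and 2 (1.52) than in intravenous 3.

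The 3 intravenous libraries were not alike in which genes were highest. Intravenous 3 led in H2-D1, Tap1, Tap2, Tapbp and Nlrc5, whereas intravenous 2 led in H2-K1, B2m, Psmb8, Psmb9 and Psmb10. Psmb8 and Psmb10 were lowest in intravenous 3 of that group. Tap1 spanned 744.3 to 1747 normalized counts within the group, and B2m 3046 to 3416.5. In the map of deviations by library, intravenous 1 was at -0.03 from the control mean for Tapbp on the log2 scale and at 1.45 for Psmb8.

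Levels can be set between genes after division by exon length. The length used was that of all annotated exons of a gene joined, such as 860 bases for B2m and 3660 for Psmb9. The transcripts present may be shorter, so the order of the genes depends on this choice of length. Per kilobase of exon, the intravenous means were 3737 normalized counts for B2m, 3605 for H2-D1, 1925 for H2-K1, 795.1 for Psmb8, 661.6 for Tapbp, 482.2 for Psmb10, 246.2 for Tap2, 236.5 for Psmb9, 218 for Tap1 and 6.52 for Nlrc5. Their ranges overlapped between B2m and H2-D1, between Psmb8 and Tapbp, between Tapbp and Psmb10, and among Tap2, Psmb9 and Tap1. In controls H2-D1 came first with 1872 per kilobase, then B2m with 1440, H2-K1 with 1131, Tapbp with 481.2, Psmb8 with 303.2, Psmb10 with 243.2, Tap2 with 180.8, Tap1 with 131.2, Psmb9 with 103.1 and Nlrc5 with 1.11. DED corneas had the same order as controls. The chains thus had more counts per kilobase of this length than every processing gene in these means. B2m stood above H2-D1 in the means of both treated groups and below it in the means of both untreated groups. Ranges of B2m and H2-D1 overlapped in each of the 4 groups.

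The rest of the route was read from lists of genes with known roles, counted beside all genes tested. Of all genes, 0.962% rose between intravenous and DED, the share to set beside each count of risen genes in that comparison. Among 17 other class I and class I-like chains, 3 rose between intravenous and DED, with a list median of 0.60 against -0.04 over all genes. They were H2-T22 (1.00, SE 0.18, adjusted p = 0.0106), H2-T23, which encodes the non-classical molecule Qa-1 (0.98, SE 0.21, adjusted p = 0.0294), and H2-Q4 (1.07, SE 0.24, adjusted p = 0.0375). H2-T23 had 1852, 2473 and 2970 normalized counts with the intravenous route, 1193 and 1321 with the eye drop, 1159, 1234 and 1233 in DED, and 808.7, 1446 and 1198 in controls. It lay above all other libraries in each intravenous library. Class I genes resemble each other, so these counts are uncertain. Without DED 1 or DED 3 none of the 3 passed.

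In the rest of the proteasome few genes passed. None of the 14 constitutive 20S core genes passed between intravenous and DED (median 0.16, 0 with an unadjusted p under 0.05), nor did any of the 18 genes of the 19S regulatory particle (median 0.02, 1 with an unadjusted p under 0.05). Of 11 activator and assembly genes, 2 rose, Psme2 (0.81, SE 0.19, adjusted p = 0.0461) and its close copy Psme2b (0.88, SE 0.19, adjusted p = 0.0288). Psme2 encodes a subunit of the interferon-inducible PA28 cap, and 28.3% of its 50-base words occur in Psme2b, so the 2 counts are uncertain. Psme1, the other PA28 subunit, was at 0.56 (95% interval 0.22 to 0.89, adjusted p = 0.0986). Both Psme2 and Psme2b failed without control 3, DED 1, DED 3, either eye drop library, intravenous 1 or intravenous 2.

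Between DED and control all 14 core genes (median 0.37) and all 18 genes of the 19S particle (median 0.32) lay above 0. None of them passed, and the median of all genes was 0.03. Between intravenous and control more of the proteasome passed, and so did more of all genes. Of these 6.66% rose, against 0.962% between intravenous and DED. Between intravenous and control 6 of the 14 core genes rose (median 0.62 against -0.01 over all genes), among them Psmb4 (0.97, adjusted p = 0.0137), Psma7 (0.78, adjusted p = 0.0165), Psma3 (0.71, adjusted p = 0.0298) and Psmb3 (0.70, adjusted p = 0.0368). The other two were Psmb6 (0.73, adjusted p = 0.0399) and Psmb1 (0.63, adjusted p = 0.0464), of which Psmb1 stood at -0.04 on the values as deposited. Of the activators and assembly factors 4 rose: Psme2b (1.36), Psme2 (1.25), Psme1 (0.76) and Pomp (0.91), the chaperone of core assembly. In the 19S particle Psmd8 (0.83, adjusted p = 0.00858) and Psmc1 (0.49, adjusted p = 0.0462, but -0.18 as deposited) rose, 2 of 18. Without control 1, intravenous 1 or intravenous 2 none of the 6 core genes passed, while Psme2 and Psme2b passed without each library in turn. Short transcripts tended to be higher in this comparison, with a median of 0.22, 0.04 and -0.22 in the short, middle and long of 3 equal classes of genes by exon length, and the part of this in the proteasome values was not tested.

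Among transcription factors known to act on class I genes, the interferon regulatory factors Irf7 and Irf1 rose between intravenous and DED. Irf7 had 2631, 3588 and 7032 normalized counts with the intravenous route, 1624 and 1463 with the eye drop, 490.5, 771.8 and 803.5 in DED, and 446.3, 1458 and 1337 in controls (2.59, SE 0.49, adjusted p = 0.0422). Each intravenous library was above all others. Irf1, which binds interferon elements of class I genes, was at 0.83 (SE 0.18, adjusted p = 0.0297). Rfx5, Nfkb1 and Rela, which bind other parts of the class I promoter, were at 0.11 (95% interval -0.44 to 0.65), -0.08 (-0.46 to 0.30) and 0.30 (-0.13 to 0.72). Irf1 and Irf7 each failed without 7 of the 11 libraries in turn, DED 1, DED 2 and DED 3 among them for each.

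Interferon-induced genes outside antigen presentation had a list median of 1.42 between intravenous and DED. Of 25 tested, 5 rose: Gbp2 (1.58, adjusted p = 0.000136), Gbp3 (2.08, adjusted p = 0.0197), Xaf1 (2.03, adjusted p = 0.0427), Oas1a (2.18, adjusted p = 0.0478) and Oasl2 (1.28, adjusted p = 0.0478). Gbp2 passed without each library in turn. Without DED 1, DED 2 or DED 3 none of the other 4 passed, and without either eye drop library Xaf1, Oas1a and Oasl2 did not. Xaf1 and Oasl2 passed in 3 and Oas1a in 4 of the 11 fits that leave out 1 library. Gbp2, a guanylate-binding protein gene, had 852.3, 847.8 and 993.9 normalized counts with the intravenous route, 686.7 and 752.2 with the eye drop, 327, 305 and 269 in DED, and 480.5, 582.6 and 551.6 in controls. The 4 groups did not overlap in it. It was the 1 gene of all these lists to pass between eye drop and DED (1.26, SE 0.18, adjusted p = 0.00566) and between DED and control (-0.84, SE 0.16, adjusted p = 0.0168). The first call was lost without either eye drop library (adjusted p up to 0.192), and the second without control 3, DED 2 or DED 3 (adjusted p up to 0.118). Summed over 26 genes, the list stood at 16279 to 50767 normalized counts in the intravenous libraries, 12674 to 14134 with the eye drop, 7601 to 8483 in DED and 5625 to 11290 in controls.

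**Figure D5:**
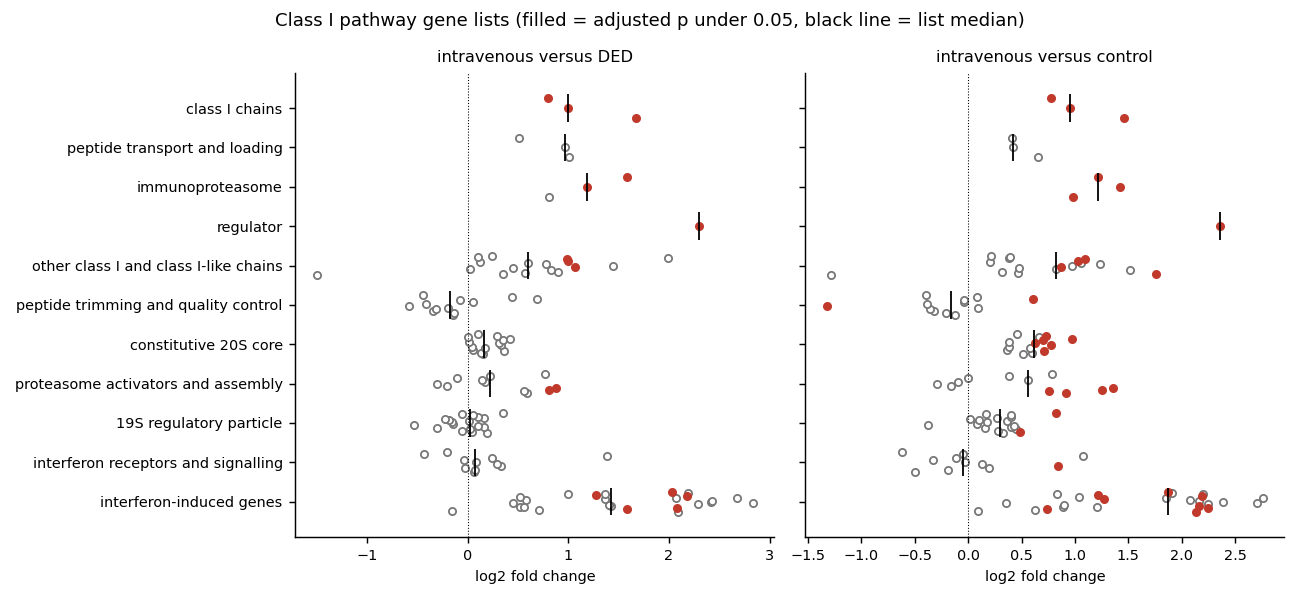
Log2 fold change (x axis) of each gene (points) of the class I route and its neighbours, by list, for intravenous against DED (left) and intravenous against control (right); filled points have an adjusted p under 0.05, open points do not, and the black line is the list median. The medians of the interferon-induced genes are 1.42 and 1.87, those of the constitutive 20S core 0.16 and 0.62.

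The genes whose levels over the 11 libraries were most like the mean of the 10 standardized genes were sought among 15771 others. They were Ogfr (Pearson's r = 0.988), Irf7 (0.976), Clic3 (0.975), Oas1a (0.974) and Ube2l6 (0.973). The libraries are shared by all of these, so the figures describe likeness alone. Irf7 and Oas1a were also on the lists above. The mean standardized level itself was 0.76, 1.28 and 1.65 in the intravenous libraries, -0.13 and -0.04 in the eye drop libraries, -1.21, -0.29 and -0.59 in DED and -1.12, -0.02 and -0.30 in controls.

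Markers of other cells were read beside these results. The 17 leukocyte markers summed to 2257 to 2668 normalized counts in intravenous, 1960 to 2396 in eye drop, 1956 to 2263 in DED and 1720 to 1820 in control libraries. None of them passed between intravenous and DED (median 0.63, 6 with an unadjusted p under 0.05), and Lyz2, H2-Eb1 and Fcer1g rose between intravenous and control. Markers of T and NK cells, which respond to class I, were near 0: 16 of 18 were in the table, and they summed to 8.71 to 23.9 with the intravenous route, 14.1 to 20.8 with the eye drop, 15.5 to 31.2 in DED and 5.62 to 18.6 in controls. Of the 7 tested none passed in any comparison, and Klrd1, Prf1 and Cd8a were at 0 in most libraries.

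The 8 conjunctival markers had their highest sums in the intravenous libraries. They summed to 86598 to 108468 normalized counts there, 60206 to 64817 with the eye drop, 43957 to 57446 in DED and 41927 to 54848 in controls. Of the 5 tested, 4 lay above 0 between intravenous and DED. The keratin genes Krt13 (0.91, adjusted p = 0.0152), Krt4 (1.22, adjusted p = 0.0112) and Krt7 (1.03, adjusted p = 0.0242) rose, as did 0.962% of all genes. The mean of log2(normalized count + 1) over the 8 was 8.17, 7.52 and 7.26 in intravenous 1, 2 and 3. In control 3 it was 7.37, above intravenous 3. The goblet cell marker Tff3 was at 0 in all 11 libraries and Muc5ac in 8. Muscle markers also moved with intravenous 1 and 2, with a median log2 fold change of 3.73 from DED (14 of 14 above 0, 4 with an unadjusted p under 0.05, none called) and 4.26 from control (14 of 14 above 0, 7 with an unadjusted p under 0.05, 1 called). The highest muscle sums were those of intravenous 1 and 2. Of the 10 class I genes, H2-K1, B2m, Psmb8, Psmb9 and Psmb10 were highest in intravenous 2. Tap1, Tap2, Tapbp, H2-D1 and Nlrc5 were highest in intravenous 3. Medians of other marker lists between intravenous and control were 1.27 for vessel endothelium, 0.96 for keratocytes and stroma, and 1.37 for corneal endothelium. Iris, ciliary body and melanocyte markers were at 1.93, retina at 0.95 and lens at -0.52. Between intravenous and DED the same lists, in this order, were at -0.30, -0.02, -0.44, -0.45, -1.35 and 1.58. The part of RNA from these tissues, leukocytes, conjunctiva and muscle in the class I values was not tested.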

How the data were processed

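RNA from mouse cornea was extracted with RNeasy columns and made into libraries with an NEBNext Ultra kit, per the labels' protocols. The authors deposited 1 table of log2 values for 28548 lines, with genome build mm9 named in the submitters' processing notes; neither an aligner nor a counter nor an annotation is named in the sources used here. The deposited log2 values were log2(count + 1) with no scaling between libraries: 99.9748% of values gave whole counts within 0.01. In the third eye drop column 26.97% did, and it equalled the mean of the other 2 to within 5e-09, so it was left out and 11 libraries were used. Left out as well were 19 lines (10 not whole, 9 with dates for names), at most 0.049% of a library's counts. The number of per-sample columns mapped to no sample was 0.

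Counts were divided by median-of-ratios size factors (0.689 to 1.35), and genes that reached a normalized count of 1 in 3 or more libraries were tested on log2(normalized count + 1), a scale that understates changes of low genes. All 4 groups entered 1 fit in limma 3.58.1 (R 4.3.3) with trend and robust estimation (7 residual degrees of freedom), with Benjamini-Hochberg adjustment over all 21203 genes within each of 6 comparisons, and a moderated F test for any difference. Intervals are 95%. Ratios of subunits were tested by exact permutation. Tables were handled with Python 3.11.15, NumPy 2.4.6 and pandas 2.3.3. The fit was tested on simulated data. The members and lists were chosen with earlier results of these data known. Genes named were all 10 members, up to 4 genes per list and comparison past the threshold, otherwise the 1 or 2 with the smallest p, the subunits Psmb5, Psmb6 and Psmb7, Irf1, Psme1 and Psme2, and the 5 genes most like the members. Oasl2, Psmb1, Rfx5, Nfkb1, Rela, Erap1 and the interferon genes were named outside this rule, after their values were seen. The rule was not carried through for every list between intravenous and control. There, 4 of 17 other class I and class I-like chains and 8 of 25 interferon-induced genes rose, where 6.66% of all genes did. These genes, and those called there in the transcription factor list, are not named. One item of the transcription factor list is not reported here. Exon lengths, overlaps and shared words came from the GENCODE annotation of GRCm38, and promoters from RefSeq; no coordinates were converted from mm9. Alternatives were other scalings, filters and pseudocounts, limma without trend and robust estimation, limma-voom, the third eye drop column kept, fits to the groups compared alone, a replicate block, each library left out, and sets of libraries left out.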

Additional observations from a re-analysis of the deposited data

How the results depend on the processing

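The number of the 10 genes called was 6 between intravenous and DED, 7 between intravenous and control and 7 for any difference. With the values as deposited these counts were 3, 3 and 3, and in limma without trend and robust estimation 1, 2 and 0. Scaling by library totals gave 4 for any difference, and a fit to the groups compared alone gave 3 between intravenous and DED. Leaving out each library in turn gave 2 to 7, 3 to 8 and 3 to 6. Without DED 3, eye drop 2 and intravenous 1 the counts were 2, 4 and 1, the range of group means of the Psmb8 to Psmb5 log2 ratio was 1.04 (adjusted p = 0.0821 by exact permutation) and that of the Psmb10 to Psmb7 ratio 0.759 (adjusted p = 0.102 by exact permutation). Without control 1 and intravenous 3, chosen after seeing the data, 1 gene was called between eye drop and DED and 4 between intravenous and eye drop. On the values as deposited, Tapbpl (-0.054), Psmb1 (-0.036) and Psmc1 (-0.178) lay below 0 between intravenous and control, where the median of all genes was at -0.55. The cause of these shifts was not tested.

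The samples share only a replicate number: of 15 same-numbered pairs, 1 had deviations correlated over 0.1 (-0.15 to 0.241). A fit with the replicate block called 9, 8 and 8 genes and none in the other comparisons. Keeping the third eye drop column gave 9, 7 and 7. Over the 60 fold changes of the 10 genes and 1440 alternatives, 59 lost a call and 19 gained one, and no called value changed sign. Depth limits Nlrc5 most, at 5 to 70 counts per library.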

Other observations

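Of 12 peptide trimming and quality control genes tested, none passed between intravenous and DED in limma (median -0.17, 4 with an unadjusted p under 0.05). Of the 12 genes, 3 lay above 0, as did 9745 of all 21203 genes. Tapbpl, which encodes the tapasin-related editor TAPBPR, was the highest of the list at 0.69 (95% interval 0.31 to 1.06, adjusted p = 0.0695). It had 325.4, 307.9 and 394.7 normalized counts with the intravenous route, 321.7 and 256.3 with the eye drop, 194.7, 246.2 and 197.1 in DED, and 217.6, 225.1 and 225.7 in controls, so all 5 treated libraries lay above the untreated ones. Erap1, which trims peptides in the endoplasmic reticulum, was at -0.31 (-0.76 to 0.14). Lnpep, another peptide-trimming enzyme, fell between intravenous and control (-1.32, SE 0.34, adjusted p = 0.0285), with 141.0, 174.3 and 300.4 normalized counts with the intravenous route, against 874.8, 334.3 and 396.1 in controls 1, 2 and 3. The call was lost without control 1, intravenous 1 or intravenous 2. Tapbpl rose in that comparison (0.61, SE 0.18, adjusted p = 0.0380), but lay at -0.05 as deposited and passed in 3 of the 11 fits that leave out 1 library.

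None of the 11 interferon receptor and signalling genes tested passed between intravenous and DED in limma (median 0.08, 1 with an unadjusted p under 0.05). That gene was Socs1, a feedback inhibitor that interferons induce, at 1.39 (95% interval 0.67 to 2.10, adjusted p = 0.0523). It had 58.0, 56.2 and 79.8 normalized counts with the intravenous route, 34.3 and 19.1 with the eye drop, 16.7, 27.7 and 28.9 in DED, and 29.0, 33.8 and 27.2 in controls. Ifngr2, a chain of the interferon gamma receptor, rose between intravenous and control (0.85, SE 0.17, adjusted p = 0.00694), and did not pass without control 1 (adjusted p = 0.0509). Of the interferon genes themselves, Ifng was listed but was not among the lines used, so its level cannot be given. Ifnb1 and Ifnk were at 0 in all 3 intravenous libraries and at no more than 3.75 normalized counts in any other library. Neither passed the filter on low values, so neither was tested.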
